A study of Mus musculus with 9 samples.

Results

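The transcripts examined were those of 34 genes of glycolysis and lactate export, picked by name from the 50686 genes counted in each library. They comprise 4 transporters of glucose and lactate, 20 glycolytic enzymes and 10 regulators of the pathway. RNA-seq was measured in polyA RNA of BCR/ABLp185+ cell lines, which are mouse bone marrow cells of the C57BL/6N background transformed with the BCR/ABL oncogene. The 3 genotypes were wt, Stat5a-/- and Stat5b-/-, and every line carried BCR/ABLp185. There was 1 line per genotype with 3 technical replicates of each, 9 libraries in all. The tests therefore compare 3 cell lines, and their p-values measure the spread between technical libraries, not between independent lines of a genotype. Both knockout comparisons share the wt libraries.

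Glycolysis splits a molecule of glucose into pyruvate in the cytosol and yields ATP without oxygen. Glucose enters through facilitative transporters of the GLUT family, and the flux is controlled mainly at hexokinase, 6-phosphofructokinase and pyruvate kinase. Pyruvate can enter mitochondria, or lactate dehydrogenase can reduce it to lactate, which leaves the cell through monocarboxylate transporters (MCT). Many steps are encoded by several paralogs with different tissue patterns, and transformed lymphoid cells are known for high glycolytic flux with lactate release. Several of the genes are known targets of hypoxia-inducible factors and of MYC.

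The 5 upstream sequences shown here belong to both lactate exporters, to Ldha and to the members with the largest change among the 6-phosphofructokinases (Pfkm) and the largest rise (Pdk2). Each is the 250 bases before 1 start of the gene in RefSeq (GRCm38.p6), 5′ to 3′ on the strand of the gene. RefSeq gave several starts for Pfkm (4), Ldha (2) and Pdk2 (2). Among several starts of a member, that nearest the 5′ end of the gene model was taken. The start used in these cells was not measured. Capitals mark ACGTG or GCGTG, the core of the hypoxia response element, and CACGTG, an E-box that contains ACGTG on both strands. Matches were searched on both strands.

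Slc16a3: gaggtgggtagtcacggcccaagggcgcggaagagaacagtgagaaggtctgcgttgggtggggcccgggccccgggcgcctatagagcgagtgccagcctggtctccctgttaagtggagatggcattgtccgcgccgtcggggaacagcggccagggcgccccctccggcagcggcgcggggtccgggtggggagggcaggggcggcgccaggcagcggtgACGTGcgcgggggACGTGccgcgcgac
Slc16a1: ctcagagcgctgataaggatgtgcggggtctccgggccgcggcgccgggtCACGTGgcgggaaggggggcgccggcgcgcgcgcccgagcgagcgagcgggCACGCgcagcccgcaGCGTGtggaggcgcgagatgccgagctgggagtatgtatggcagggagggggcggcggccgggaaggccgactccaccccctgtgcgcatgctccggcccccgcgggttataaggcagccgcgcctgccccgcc
Ldha: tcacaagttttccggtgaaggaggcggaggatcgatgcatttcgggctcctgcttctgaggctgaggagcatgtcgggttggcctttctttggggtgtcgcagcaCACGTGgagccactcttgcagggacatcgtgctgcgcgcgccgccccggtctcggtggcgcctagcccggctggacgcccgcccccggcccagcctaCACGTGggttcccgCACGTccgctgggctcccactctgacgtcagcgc
Pfkm: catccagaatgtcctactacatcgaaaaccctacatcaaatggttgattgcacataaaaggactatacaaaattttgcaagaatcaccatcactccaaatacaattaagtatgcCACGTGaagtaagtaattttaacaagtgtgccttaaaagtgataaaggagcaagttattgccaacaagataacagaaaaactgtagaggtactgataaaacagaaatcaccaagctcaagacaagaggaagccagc
Pdk2: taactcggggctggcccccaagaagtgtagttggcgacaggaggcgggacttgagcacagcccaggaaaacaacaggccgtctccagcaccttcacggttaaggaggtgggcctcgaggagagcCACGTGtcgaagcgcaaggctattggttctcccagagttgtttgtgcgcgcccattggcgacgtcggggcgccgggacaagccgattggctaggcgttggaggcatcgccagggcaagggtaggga

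The Slc16a3 window lies at chr11:120948817-120949066 on the plus strand, within the gene model of the count tables but with only 14 bases in an annotated exon (GENCODE M21). The Slc16a1 window lies at chr3:104638414-104638663 and the Pfkm window at chr15:98092339-98092588, both on the plus strand and outside the gene model. The Ldha window lies at chr7:46845554-46845803 on the plus strand, inside an intron of the gene model. The Pdk2 window lies at chr11:95041372-95041621 on the minus strand, outside the gene model. RefSeq held a window for 33 of the 34 members and none was given for Slc2a3. The hypoxia response element core was found in 24 of the 33 windows, against 38.6% of the 32851 windows of all genes. Among the 15 members with a window that fell in Stat5b-/- against wt, 11 held it. The E-box was found in 4 of the 33 windows, namely those of Pfkm, Ldha, Slc16a1 and Pdk2, against 6.02% of all windows. TTCNNNGAA, the letters of a STAT site, was found in 0 of the 33 windows and in 7.02% of all windows. These are matches of letters within 250 bases, and no binding was measured.

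The libraries held between 11948136 and 19016396 counted reads. Values are normalized CPM, counts relative to the library total after scaling with edgeR's TMM method. Of the 34 members, 31 were among the 13852 genes that passed the filter on low counts. Pdk4, a pyruvate dehydrogenase kinase of fasted oxidative tissues, had 0 reads in all 9 libraries, and the hexokinase Hk3 and the lactate dehydrogenase Ldhb, which favours the reverse reaction, had at most 4 and 9 reads in a library. Reads on Stat5a fell to 12.4 ± 1.02 normalized CPM (SD, n = 3) in Stat5a-/- from 43.1 ± 6.35 in wt. Reads on Stat5b fell to 63.4 ± 7.72 in Stat5b-/- from 105.5 ± 1.96 in wt, so reads of each gene remained in its own knockout line. Within each line, the deviation of a library from the other replicates was correlated with the GC content of the genes to a varying degree, with a correlation across genes of -0.54 to 0.58, and of only -0.07 in wt replicate 3 and 0.18 in Stat5b-/- replicate 2.

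The summed level of the members was lowest in Stat5b-/- and intermediate in Stat5a-/- cells. All 34 genes together reached 5137 ± 525.5 normalized CPM in wt, 4317 ± 385.4 in Stat5a-/- and only 3048 ± 172.3 in Stat5b-/- (mean ± SD, n = 3). The Stat5b-/- libraries, at 2872 to 3217, lay below every other library. The wt libraries ran from 4665 to 5704 and the Stat5a-/- libraries from 4077 to 4762, so these lines overlapped. Fewer transcripts per cell and fewer cells with a transcript cannot be told apart in bulk RNA.

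Of the 31 members tested in Stat5b-/- against wt, 16 were lower, 3 were higher and 12 were not called at an adjusted p under 0.05 by edgeR. Over all genes tested, 22.0% were called lower and 24.2% higher. Past a fold change of 2 as well, 8 members were lower and 2 higher, against 8.44% and 10.6% of all genes. The median log2 fold change of the members was -0.50, and that of all genes tested was 0.02. By role, 3 of the 4 transporters, 12 of the 18 enzymes tested and 1 of the 9 regulators tested were lower. In Stat5a-/- against wt, 8 members were lower and 3 higher, against 16.3% and 19.8% of all genes. With library totals 13 were lower, with a median log2 fold change of -0.346, and with an offset for GC content 14 were lower. Past a fold change of 2, 4 members were lower and 1 was higher, against 6.49% and 7.75%. Their median log2 fold change was -0.205, against 0.01 for all genes tested, and 4 of the 18 enzymes tested were among those lower.

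The direct comparison of Stat5b-/- with Stat5a-/- gave 14 members lower and 1 higher in Stat5b-/-, against 17.5% and 16.4% of all genes. Past a fold change of 2, 4 were lower and 0 higher, against 6.60% and 4.81%. All 14 lower members except Pfkfb4 were transporters or enzymes, and the median log2 fold change was -0.39. With the libraries scaled to their totals alone, 13 were lower and 3 higher. Without Stat5a-/- replicate 3 the numbers were 12 and 3, and without Stat5b-/- replicate 3 they were 13 and 3.

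The means of 16 members ranked wt above Stat5a-/- above Stat5b-/-, an order held by 20.4% of all genes tested. For 6 of them, Slc2a1, Pfkm, Aldoc, Tpi1, Ldha and Slc16a3, no library of a line overlapped with another line, against 4.42% of all genes. Only Pfkfb3 among the members rose in the same way without overlap from wt to Stat5a-/- to Stat5b-/-, against 4.69% of all genes.

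**Figure D1:**
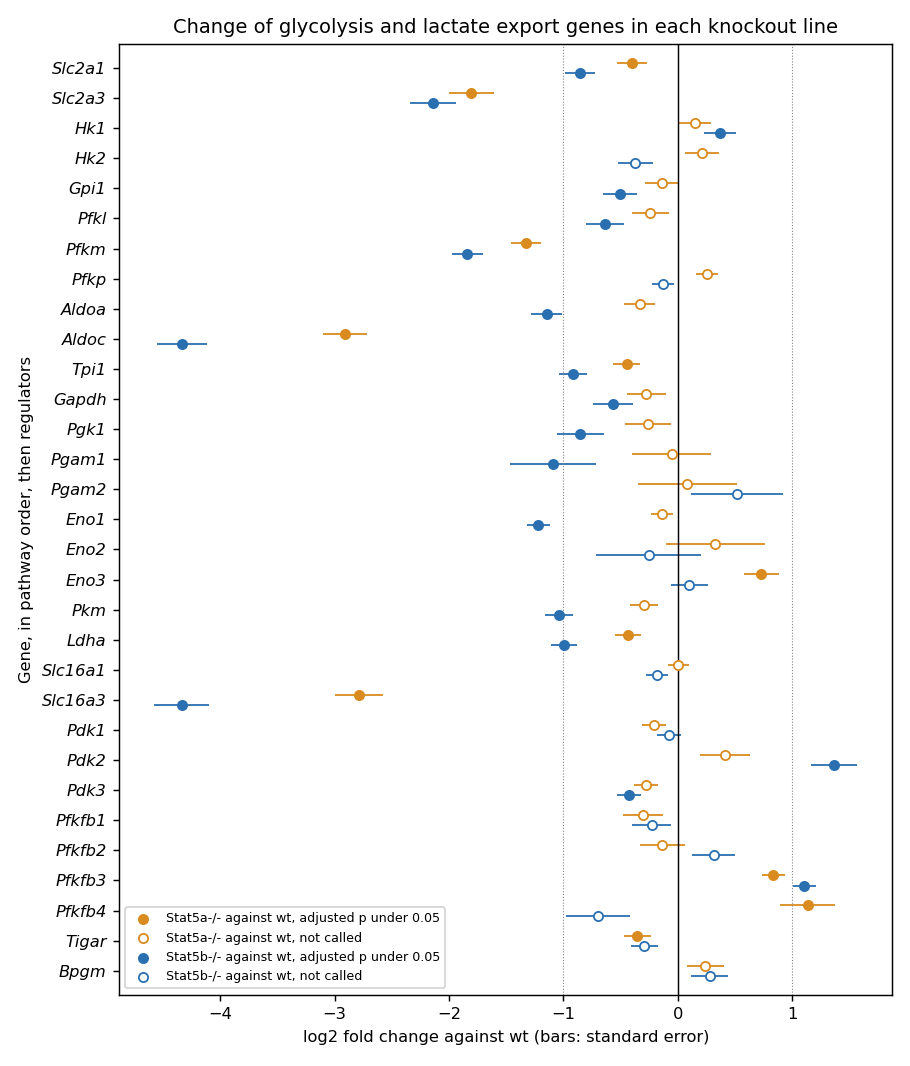
Log2 fold change against wt (x axis) of the 31 members tested (y axis, pathway order and then regulators) in Stat5a-/- (orange) and Stat5b-/- (blue), with standard errors; filled points were called at an adjusted p under 0.05 and dotted lines mark a 2-fold change. Most enzymes from Aldoa to Ldha lie further left in Stat5b-/- than in Stat5a-/-, Aldoc and Slc16a3 lie furthest left in both, and Pfkfb3 lies to the right in both.

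Glucose transporters were lower in both knockout lines. Slc2a3 (GLUT3, the high-affinity transporter, ENSMUSG00000003153.10, chromosome 6 from 122727809 to 122801640 of GRCm38) had 31.1, 29.1 and 30.7 normalized CPM in the wt libraries. It had 8.53, 9.28 and 8.21 in the Stat5a-/- and 9.53, 4.44 and 6.63 in the Stat5b-/- libraries. All 6 knockout libraries lay far below the wt libraries, and the knockout lines overlapped. The log2 fold change was -1.80 in Stat5a-/- (standard error, SE, 0.20, adjusted p = 9.46e-06) and -2.14 in Stat5b-/- (SE 0.20, adjusted p = 1.92e-06). Here and in what follows, p-values come from the quasi-likelihood test of edgeR and are Benjamini-Hochberg adjusted over all genes tested. The difference between the knockout lines was not called (-0.34, adjusted p = 0.25). Without Stat5b-/- replicate 1, the highest of its line, it was called (-0.66, adjusted p = 0.0165). Slc2a1 (GLUT1, the widespread basal transporter, ENSMUSG00000028645.11) fell more modestly, by 0.40 on the log2 scale in Stat5a-/- (adjusted p = 0.0295) and by 0.85 in Stat5b-/- (adjusted p = 0.000164). Its call in Stat5a-/- was lost without wt replicate 1 or 3, without Stat5a-/- replicate 1 or 2 and with the replicate number as a block, with adjusted p between 0.0528 and 0.112. Slc2a1 was also lower when the knockout lines were compared directly (-0.45), but not without replicate 3 of either knockout line (adjusted p = 0.0777 and 0.0638).

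Per kilobase of gene model, Slc2a1 stood at 33.8 ± 3.05 normalized CPM and Slc2a3 at 4.18 ± 0.146 in wt (SD, n = 3). Slc2a3 thus held 11.0% ± 0.58 of the summed level of both transporters in wt, 4.51% ± 0.71 in Stat5a-/- and 4.83% ± 1.54 in Stat5b-/-. Without length scaling, the shares of raw reads were 20.4%, 8.89% and 9.47%. Shares and step totals are descriptions, because an exact test of 3 libraries against 3 cannot reach p under 0.05.

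Hexokinase, the first committed step of glucose use, was not called lower against wt. Hk1, the housekeeping form bound to mitochondria, had 55.6 ± 7.96 normalized CPM in wt and 71.6 ± 4.85 in Stat5b-/- (log2 fold change 0.37, edgeR adjusted p = 0.0444). That call was lost under 10 of the alternatives, among them DESeq2, RLE scaling, the library totals and the replicate block, with adjusted p from 0.0501 to 0.177. Libraries whose omission ended it were wt replicates 2 and 3, Stat5a-/- replicates 1 and 2 and Stat5b-/- replicates 1 and 2. Hk1 was not called between the knockout lines, except with the GC offset and without Stat5a-/- replicate 3 (0.38, adjusted p = 0.0458). Hk2, the inducible form of tumours and muscle, was not called against wt in either line, with log2 fold changes of 0.21 in Stat5a-/- and -0.37 in Stat5b-/- (adjusted p = 0.29 and 0.0604). The latter was called under 7 alternatives, among them those without Stat5a-/- replicate 3 or Stat5b-/- replicate 2 (adjusted p = 0.0451 and 0.0105). The direct comparison put it lower in Stat5b-/- (-0.58, adjusted p = 0.00996). Hk2 made up 33.5% ± 1.77 of hexokinase transcripts per kilobase in wt, 34.6% ± 3.87 in Stat5a-/- and 23.0% ± 3.42 in Stat5b-/-.

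Gpi1, which converts glucose 6-phosphate to fructose 6-phosphate, fell by 0.50 on the log2 scale in Stat5b-/- (adjusted p = 0.0151), a call that was lost without wt replicate 1 (adjusted p = 0.0706). In Stat5a-/- its log2 fold change was -0.14 (adjusted p = 0.522). The direct value between the knockout lines, -0.37 (adjusted p = 0.0777), was called without the filter on low counts (adjusted p = 0.014).

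The 6-phosphofructokinases, which catalyse the main rate-controlling step, changed unequally. Pfkm (the muscle-type subunit, ENSMUSG00000033065.13, chromosome 15 from 98092589 to 98132447) had 46.3, 43.5 and 42.6 normalized CPM in the wt libraries. It had 16.4, 15.4 and 21.2 in Stat5a-/- and 11.3, 13.2 and 12.5 in Stat5b-/-. No library of a line overlapped with another line. Pfkm fell by 1.33 on the log2 scale in Stat5a-/- (SE 0.13, edgeR adjusted p = 3.61e-06) and by 1.84 in Stat5b-/- (SE 0.13, adjusted p = 1.71e-07). The direct comparison of the knockout lines put Stat5b-/- lower still (-0.51, adjusted p = 0.0122), a call lost without Stat5a-/- replicate 3 (-0.36, adjusted p = 0.0545). Pfkl, the liver-type subunit, was lower in Stat5b-/- (-0.63, adjusted p = 0.00626) and not called in Stat5a-/- (-0.24, adjusted p = 0.275), except with the GC offset (-0.42, adjusted p = 0.00238). Its direct value, -0.39 (adjusted p = 0.0823), was called without the filter on low counts (adjusted p = 0.0276). Pfkp, the platelet-type subunit, was not called against wt, at 0.26 in Stat5a-/- and -0.13 in Stat5b-/- (adjusted p = 0.0508 and 0.301), and the lines differed directly by -0.39 (adjusted p = 0.00793). The higher value of Pfkp in Stat5a-/- was called under 5 alternatives, with adjusted p from 0.0154 to 0.0489, including without Stat5b-/- replicate 1. The share of Pfkm in the summed 6-phosphofructokinase level per kilobase was 42.6% ± 0.86 in wt, 21.8% ± 1.99 in Stat5a-/- and 20.4% ± 0.88 in Stat5b-/-, and Pfkp, at 34.6% in wt, held 53.4% and 54.3% in the knockout lines. Without length scaling, Pfkp already led in wt with 53.9% of the reads, against 68.5% and 69.0% in Stat5a-/- and Stat5b-/-, and Pfkm held 20.9%, 8.83% and 8.17%.

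Aldolase cleaves fructose 1,6-bisphosphate, and its minor form changed most of all members together with Slc16a3. Aldoc (the brain-type aldolase, ENSMUSG00000017390.15, chromosome 11 from 78322968 to 78327781) had 37.2, 29.6 and 30.7 normalized CPM in wt. It had 4.20, 3.58 and 5.23 in Stat5a-/- and 2.06, 1.71 and 0.99 in Stat5b-/-. The 3 lines formed separate steps, the lowest being Stat5b-/-. Its log2 fold change was -2.91 in Stat5a-/- (SE 0.19, edgeR adjusted p = 8.07e-08), or 7.52-fold lower, and -4.34 in Stat5b-/- (SE 0.22, adjusted p = 5.3e-09), or 20.2-fold lower. Between the knockout lines the value was -1.43 (adjusted p = 0.000811).

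Aldoa (the main aldolase of muscle and most cells, ENSMUSG00000030695.14, chromosome 7 from 126795234 to 126809108) was the member with the highest counted level per kilobase, 394.3 ± 55.5 normalized CPM in wt. That rank is of counted reads only, because the levels of Gapdh and some other members are minimum levels, as given below. Aldoa had 1709, 1298 and 1442 normalized CPM in wt, 1067, 1104 and 1362 in Stat5a-/- and 710.8, 710.8 and 591.9 in Stat5b-/-. Every Stat5b-/- library lay below all others, while wt and Stat5a-/- overlapped. The log2 fold change was -1.14 in Stat5b-/- (SE 0.14, adjusted p = 1.67e-05) and -0.33 in Stat5a-/- (adjusted p = 0.0707), and -0.81 between the knockout lines (adjusted p = 0.000496). The change in Stat5a-/- was called with the library totals (-0.48, adjusted p = 0.00859), without the filter on low counts, with the GC offset, and without wt replicate 2 or Stat5a-/- replicate 3 (adjusted p = 0.042 and 0.017). Aldoc held 2.47% ± 0.086 of the aldolase level per kilobase in wt, 0.42% ± 0.043 in Stat5a-/- and 0.27% ± 0.070 in Stat5b-/-, so the step total followed Aldoa.

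Tpi1, which interconverts the triose phosphates made by aldolase, was lower in both lines, by log2 fold changes of -0.44 in Stat5a-/- (adjusted p = 0.00983) and -0.91 in Stat5b-/- (adjusted p = 3.76e-05). Of the next enzymes, many reads cannot be placed. Reads were 50 bp, and featureCounts leaves out reads that map to several places. Of the 50-base stretches in the coding sequence, 93.5% of those of Gapdh recur in 221 other annotated genes, and 100% of those of Pgk1 and Pgam1 recur in 5 and 4. The share was 75.0% for Eno1, 53.6% for Pkm and 60.5% for Pfkfb2, and at most 38.7% for each of the other members tested. Levels given for these 6 genes are therefore minimum levels, and the comparisons between lines rest on the reads that could be placed.

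For Gapdh, the oxidising step of glycolysis, more reads were placed on genes that share its stretches than on the gene itself. The number of reads left out is not known from these counts. Gapdh had 22.6 ± 5.64 normalized CPM in wt, while the genes that share its coding stretches had 766.7 ± 113.1 together. In Stat5b-/- the values were 15.2 ± 1.12 and 468.6 ± 36.2, and in Stat5a-/- 18.7 ± 2.78 and 707.7 ± 70.9. Gapdh itself was lower in Stat5b-/- (-0.57, adjusted p = 0.0167), a call lost without wt replicate 1 (adjusted p = 0.0804), and was not called in Stat5a-/- (-0.27, adjusted p = 0.242), except with the GC offset (-0.37, adjusted p = 0.0449). The sum of Gapdh and these genes lay at 706.2 to 925.2 in wt, 669.2 to 809.1 in Stat5a-/- and 441.0 to 508.2 in Stat5b-/- libraries. The Stat5b-/- libraries lay below both other lines in this sum too. Among the 6 members with over 50% of coding stretches shared, 5 were lower in Stat5b-/- and 0 in Stat5a-/-, and among the other 25 the numbers were 11 and 8, where 22.0% and 16.3% of all genes were lower.

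Pgk1, the first ATP-yielding step, was lower in Stat5b-/- than in wt (-0.85, adjusted p = 0.00429) and was not called in Stat5a-/- (-0.26, adjusted p = 0.348). It was also lower in Stat5b-/- than in Stat5a-/- (-0.59, adjusted p = 0.0446). The latter call was lost with the library totals, in a fit of those lines alone and without Stat5a-/- replicate 1 or 2 or Stat5b-/- replicate 1 or 2 (adjusted p 0.0563 to 0.159). Pgam1 (the general phosphoglycerate mutase, ENSMUSG00000011752.6, chromosome 19 from 41911871 to 41918664) had only 8 to 53 reads in a library, which were 2.67, 2.68 and 2.48 normalized CPM in wt. It had 3.57, 1.55 and 2.34 in Stat5a-/- and 2.06, 0.957 and 0.609 in Stat5b-/-. The Stat5b-/- libraries lay below those of wt, and the Stat5a-/- libraries spread across both. The log2 fold change in Stat5b-/- was -1.09 (SE 0.38, adjusted p = 0.0312), and it was lost without any 1 of the wt libraries or without Stat5b-/- replicate 2 or 3 (adjusted p 0.0595 to 0.108). Its direct value between the knockout lines, -1.04 (adjusted p = 0.0588), was called under 5 alternatives, including without Stat5a-/- replicate 2 or Stat5b-/- replicate 1 (adjusted p = 0.0327 and 0.00873). Pgam2, its muscle paralog, was not called in either line (adjusted p = 0.313 in Stat5b-/-).

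Enolase makes phosphoenolpyruvate. Eno1 (the general form, ENSMUSG00000063524.13, chromosome 4 from 150236721 to 150248879) had 352.2, 308.1 and 308.5 normalized CPM in wt, 284.2, 282.6 and 314.1 in Stat5a-/- and 141.8, 145.6 and 128.7 in Stat5b-/-. The Stat5b-/- libraries stood apart far below all others, whereas wt and Stat5a-/- overlapped. Its log2 fold change was -1.22 in Stat5b-/- (SE 0.10, adjusted p = 5.18e-07), -0.14 in Stat5a-/- (adjusted p = 0.307) and -1.08 between the knockout lines (adjusted p = 3.01e-06). With the library totals and with the GC offset, Eno1 was called lower in Stat5a-/- as well (-0.28 and -0.31, adjusted p = 0.0306 and 0.00292). Eno3, the muscle enolase, was higher in Stat5a-/- than in wt (0.73, adjusted p = 0.0022) and was lower in Stat5b-/- than in Stat5a-/- (-0.63, adjusted p = 0.00791). Against wt it was not called in Stat5b-/- (0.10, adjusted p = 0.622). Eno2, the neuronal enolase, was barely present at 0.504 ± 0.155 normalized CPM in wt and was not called. Eno3 made up 4.83% ± 0.17 of the enolase level per kilobase in wt, 8.48% ± 0.34 in Stat5a-/- and 11.3% ± 1.45 in Stat5b-/-, and 1.61%, 2.91% and 3.95% of the reads without length scaling. The share in Stat5b-/- was larger although Eno3 itself was not called there, and Eno1 enters the shares with a minimum level.

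Pkm (pyruvate kinase of most tissues, with its PKM1 and PKM2 isoforms not separated in these counts, ENSMUSG00000032294.17, chromosome 9 from 59656368 to 59679375) had 553.8, 420.9 and 450.0 normalized CPM in wt, 371.0, 368.4 and 423.9 in Stat5a-/- and 232.9, 255.7 and 204.9 in Stat5b-/-. Again only the Stat5b-/- libraries lay apart from the rest. The log2 fold change was -1.04 in Stat5b-/- (SE 0.13, adjusted p = 1.92e-05), -0.29 in Stat5a-/- (adjusted p = 0.0849) and -0.75 between the knockout lines (adjusted p = 0.000513). In Stat5a-/- the change was called with the library totals (-0.43, adjusted p = 0.0102), without the filter, with the GC offset and without Stat5a-/- replicate 3 (adjusted p = 0.0425). Ldha, which reduces pyruvate to lactate, was lower in both, by -0.43 in Stat5a-/- (adjusted p = 0.00901) and -0.99 in Stat5b-/- (adjusted p = 1.23e-05), with -0.56 between them (adjusted p = 0.0021). Ldha accounted for at least 99.7% of the mean lactate dehydrogenase level per kilobase in each line.

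**Figure D2:**
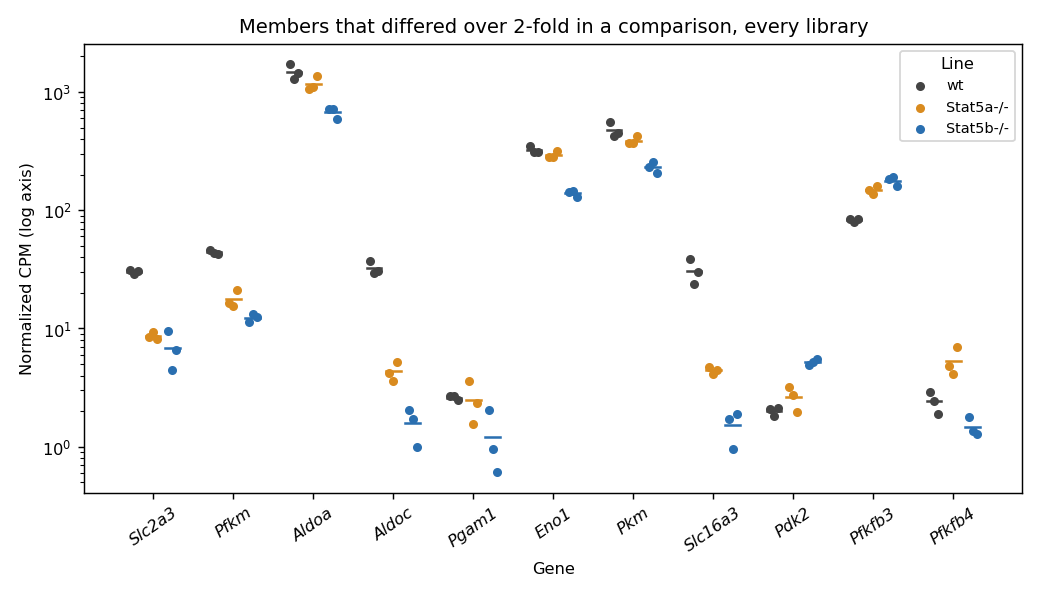
Normalized CPM (log axis) in each of the 3 libraries of wt (grey), Stat5a-/- (orange) and Stat5b-/- (blue) for the 11 members called with a fold change over 2 in a comparison; bars are means. Slc2a3, Pfkm, Aldoc and Slc16a3 are lower in both knockout lines, Aldoa, Eno1 and Pkm are set apart in Stat5b-/-, and Pfkfb4 is highest in Stat5a-/-.

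The lactate exporters differed from each other. Slc16a3 (MCT4, the exporter of glycolytic cells, ENSMUSG00000025161.16, chromosome 11 from 120948480 to 120960868) had 38.5, 24.0 and 29.9 normalized CPM in wt. It had 4.76, 4.15 and 4.42 in Stat5a-/- and 1.71, 0.957 and 1.90 in Stat5b-/-. The lines did not overlap, and Stat5b-/- was lowest. The log2 fold change was -2.79 in Stat5a-/- (SE 0.21, edgeR adjusted p = 2.74e-07), or 6.90-fold lower, and -4.33 in Stat5b-/- (SE 0.24, adjusted p = 1.26e-08), or 20.2-fold lower. Between the knockout lines it was -1.55 (adjusted p = 0.000862). Slc16a1 (MCT1, which carries lactate in both directions) was not called, with 414.9 ± 15.6 in wt, 417.0 ± 29.1 in Stat5a-/- and 365.8 ± 21.2 in Stat5b-/- and log2 fold changes of 0.01 and -0.18 (adjusted p = 0.964 and 0.135). Its Stat5b-/- libraries nevertheless lay below all others. With the GC offset it was called lower in Stat5b-/- than in Stat5a-/- (-0.29, adjusted p = 0.0216). Slc16a3 held 5.84% ± 1.47 of the level of both exporters per kilobase in wt, 0.88% ± 0.006 in Stat5a-/- and 0.35% ± 0.12 in Stat5b-/-. Their summed level was 99.5 ± 2.39 in wt, 95.1 ± 6.63 in Stat5a-/- and 82.9 ± 4.74 in Stat5b-/-.

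**Figure D3:**
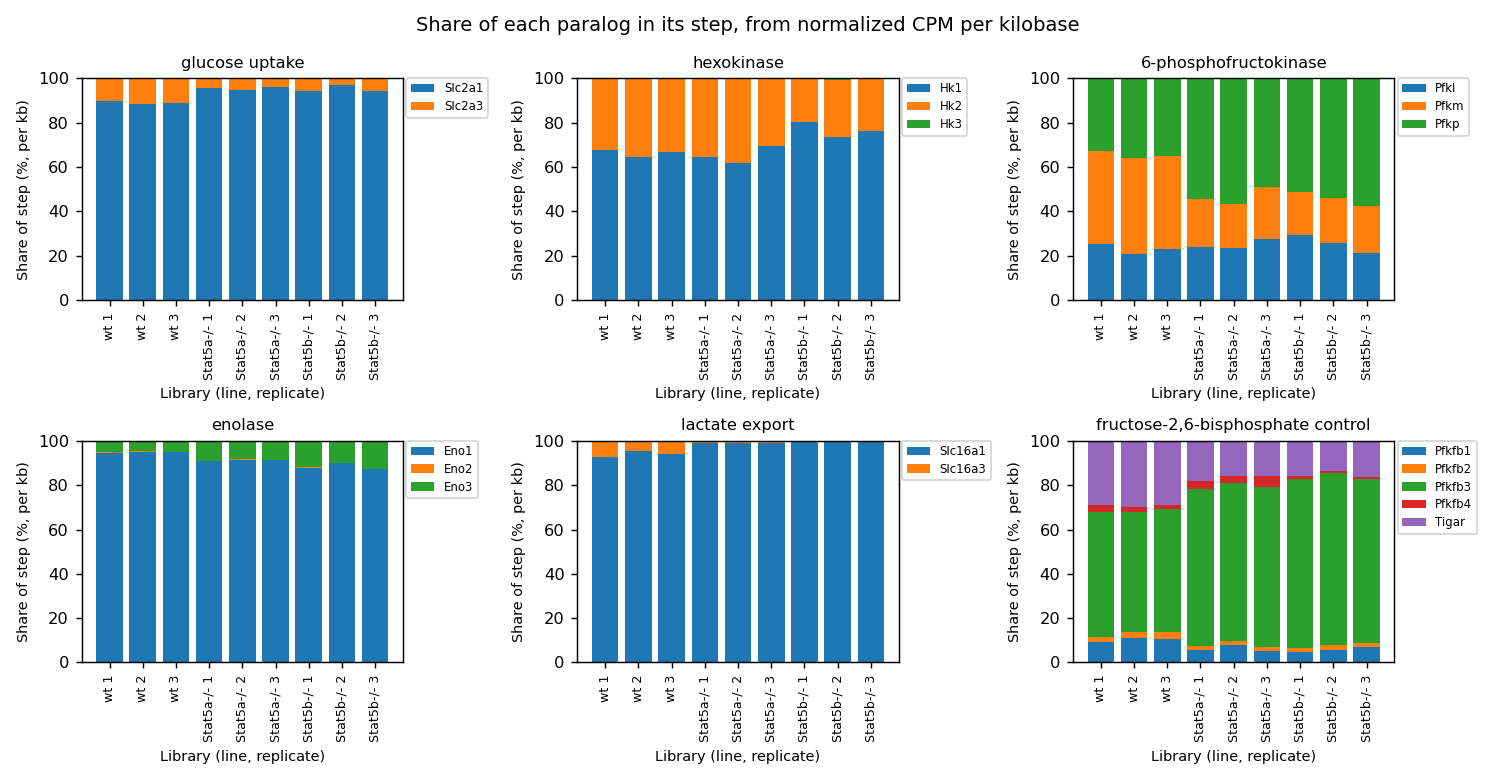
Share of each gene in the summed normalized CPM per kilobase of its step (y axis, %) in every library (x axis) for 6 steps. Genes of a step are paralogs, except Tigar, which is grouped with the PFKFB genes. The shares of Slc2a3, Pfkm, Slc16a3 and Tigar are smaller, and those of Pfkp, Eno3 and Pfkfb3 larger, in the knockout libraries than in wt.

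Among the regulators, the fructose-2,6-bisphosphate group held both large rises and a fall. This metabolite activates 6-phosphofructokinase, and the PFKFB enzymes make and degrade it. Pfkfb3 (the form with the highest kinase activity, ENSMUSG00000026773.19, chromosome 2 from 11471433 to 11554077) had 84.0, 80.1 and 84.4 normalized CPM in wt, 147.1, 137.7 and 159.2 in Stat5a-/- and 183.6, 190.7 and 160.2 in Stat5b-/-. Every knockout library exceeded every wt library, and the Stat5b-/- libraries exceeded those of Stat5a-/-. Pfkfb3 rose by a log2 fold change of 0.84 in Stat5a-/- (SE 0.10, adjusted p = 2.03e-05) and of 1.11 in Stat5b-/- (SE 0.10, adjusted p = 1.38e-06). The difference between the knockout lines was 0.27 (adjusted p = 0.0529). That difference was called with the library totals, with the GC offset and without replicate 3 of either knockout line (adjusted p 0.00726 to 0.0393).

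Pfkfb4 (a paralog induced in many tumours, ENSMUSG00000025648.17, chromosome 9 from 108991778 to 109032228) had 2.92, 2.42 and 1.91 normalized CPM in wt, 4.83, 4.15 and 7.03 in Stat5a-/- and 1.78, 1.37 and 1.30 in Stat5b-/-. The Stat5a-/- libraries were the highest and the Stat5b-/- libraries the lowest, without overlap. It rose in Stat5a-/- (1.14, SE 0.24, adjusted p = 0.0024), was not called in Stat5b-/- against wt (-0.69, SE 0.28, adjusted p = 0.06) and was lower in Stat5b-/- than in Stat5a-/- (-1.83, SE 0.27, adjusted p = 0.000178). Its lower value in Stat5b-/- against wt was called under 6 alternatives, among them those without wt replicate 3 or Stat5a-/- replicate 3 (adjusted p = 0.0453 and 0.0341). Pfkfb1, the liver and muscle gene, and Pfkfb2, the heart gene, were not called in any comparison, although Pfkfb2 was higher in Stat5b-/- than in Stat5a-/- with the library totals and without Stat5b-/- replicate 3 (adjusted p = 0.0384 and 0.0426). Tigar, a phosphatase that lowers fructose 2,6-bisphosphate, fell by 0.35 on the log2 scale in Stat5a-/- (adjusted p = 0.0356) and had a log2 fold change of -0.29 in Stat5b-/- (adjusted p = 0.0614). The call in Stat5a-/- was lost without any 1 wt library, without Stat5a-/- replicate 2, without the filter on low counts and with the replicate block (adjusted p 0.0578 to 0.133). Conversely, Tigar was called lower in Stat5b-/- under 6 alternatives, including without Stat5a-/- replicate 2 or Stat5b-/- replicate 1 (adjusted p = 0.0485 and 0.0375). The summed level per kilobase of these 5 genes was 19.8 ± 0.26 in wt, 27.3 ± 1.77 in Stat5a-/- and 31.0 ± 2.10 in Stat5b-/-. Pfkfb3 held 55.3% ± 1.27 of it in wt, 71.6% ± 0.77 in Stat5a-/- and 75.9% ± 1.76 in Stat5b-/-.

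Pyruvate dehydrogenase kinases switch off the entry of pyruvate into mitochondrial oxidation. Pdk2 (a broadly expressed form, ENSMUSG00000038967.13, chromosome 11 from 95026258 to 95041354) had 2.09, 1.82 and 2.14 normalized CPM in wt, 3.22, 2.77 and 1.98 in Stat5a-/- and 4.87, 5.19 and 5.56 in Stat5b-/-. The Stat5b-/- libraries lay above all others, while wt and Stat5a-/- overlapped. In Stat5b-/- it rose (log2 fold change 1.37, SE 0.20, adjusted p = 0.000115), and it was the only member called higher when Stat5b-/- was set directly against Stat5a-/- (0.95, adjusted p = 0.0031). Pdk3, which had the highest level of the kinases at 34.8 ± 1.66 normalized CPM per kilobase in wt, fell by 0.42 on the log2 scale in Stat5b-/- (adjusted p = 0.00537). In Stat5a-/- its value was -0.27 (adjusted p = 0.0599), called under 6 alternatives, including without replicate 1 of either knockout line (adjusted p = 0.0432 and 0.0406). Pdk1, the kinase known as hypoxia-inducible, was not called, with log2 fold changes of -0.21 in Stat5a-/- and -0.08 in Stat5b-/- (adjusted p = 0.159 and 0.585), except that it was called lower in Stat5a-/- with the library totals (-0.346, adjusted p = 0.0301). Bpgm, which makes 2,3-bisphosphoglycerate, was not called either (0.24 and 0.28, adjusted p = 0.274 and 0.17).

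Step by step, the summed levels per kilobase relative to the wt mean were lowest in Stat5b-/- for aldolase at 0.44, enolase at 0.46, pyruvate kinase at 0.49, lactate dehydrogenase at 0.50 and glucose uptake at 0.52. In Stat5a-/- the same steps stood at 0.78, 0.95, 0.82, 0.74 and 0.71. The 6-phosphofructokinase total was 0.58 of wt in Stat5b-/- and 0.78 in Stat5a-/-. Lactate export kept 0.83 of wt in Stat5b-/-, and hexokinase was at 1.12 in Stat5b-/- and 1.13 in Stat5a-/-. The total for the control of fructose 2,6-bisphosphate was 1.57 of wt in Stat5b-/- and 1.38 in Stat5a-/-. This total adds Tigar, which lowers the metabolite, to the PFKFB genes, so it is not the level of a single activity.

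**Figure D4:**
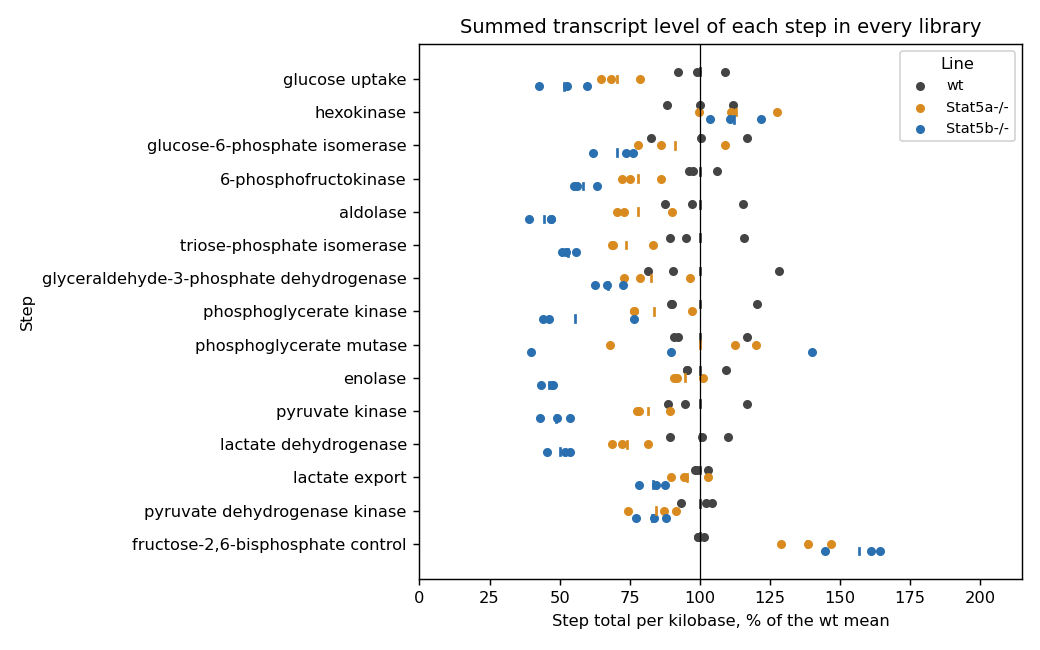
Summed normalized CPM per kilobase of the genes of each step as a percentage of the wt mean (x axis) in each library of wt (grey), Stat5a-/- (orange) and Stat5b-/- (blue), with bars at the means. For 6-phosphofructokinase, aldolase, enolase, pyruvate kinase and lactate dehydrogenase, the Stat5b-/- points lie below all points of both other lines, whereas hexokinase does not.

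Genes next to the pathway were counted in the same fit and only there. Their counts are to be read beside the shares of all genes tested, 22.0% lower and 24.2% higher in Stat5b-/- and 16.3% lower and 19.8% higher in Stat5a-/-. In the pentose phosphate pathway, which branches off at glucose 6-phosphate, 2 of 8 genes were lower and 0 higher in Stat5b-/-, and 0 lower and 1 higher in Stat5a-/-. The 25% lower in Stat5b-/- are close to the share of all genes. The former 2 were oxidative dehydrogenases, G6pdx (-0.64, edgeR adjusted p = 0.000111) and Pgd (-0.51, adjusted p = 0.00246), while H6pd, the dehydrogenase of the endoplasmic reticulum, was not called (0.19, adjusted p = 0.3). These 3 were named after their values were seen. Of 10 genes for the entry of pyruvate into mitochondria and its oxidation, 3 were lower and 1 higher in Stat5b-/-, and 2 lower and 1 higher in Stat5a-/-. The 1 higher in Stat5a-/- was Mpc1, a subunit of the mitochondrial pyruvate carrier (1.46, adjusted p = 0.00056), at 1.70 ± 0.451 normalized CPM in wt and 4.71 ± 1.24 in Stat5a-/-. Of 11 genes of gluconeogenesis and glycogen tested, 4 (36.4%) were lower and 2 (18.2%) higher in each knockout line, so that the share lower exceeded that of all genes and the share higher did not. Fbp1, which reverses the 6-phosphofructokinase step, fell in Stat5a-/- (-2.26, adjusted p = 3.43e-07) and was not called in Stat5b-/- (0.31, adjusted p = 0.0874), and Pygm, the muscle glycogen phosphorylase, rose in Stat5a-/- (1.37, adjusted p = 0.000199) and in Stat5b-/- (0.84, adjusted p = 0.00665).

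Of 19 further paralogs of the enzymes and transporters, only 5 were tested. Slc2a6, a lysosomal sugar transporter, rose in Stat5b-/- (3.03, edgeR adjusted p = 1.51e-06) and in Stat5a-/- (1.84, adjusted p = 0.000419), from 0.585 ± 0.096 normalized CPM in wt to 4.84 ± 1.23 and 2.12 ± 0.285. Slc2a9, mainly a urate transporter, went from 12.5 ± 0.572 in wt up to 51.9 ± 2.76 in Stat5a-/- and 35.6 ± 2.29 in Stat5b-/- (log2 fold changes 2.05 and 1.51, adjusted p = 8.08e-09 and 1.33e-07). Both thus moved opposite to Slc2a1 and Slc2a3. Gapdhs, the sperm form of Gapdh, rose in Stat5a-/- (1.69, adjusted p = 0.000919) from 0.736 ± 0.224.

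Of 16 tested genes that control glycolysis as transcription factors, oxygen sensors or chaperones, 6 were lower and 3 higher in Stat5b-/-, and 6 lower and 2 higher in Stat5a-/-. Egln3, an oxygen-sensing prolyl hydroxylase, had 88.5 ± 0.947 normalized CPM in wt, 5.29 ± 1.62 in Stat5a-/- and 3.71 ± 0.212 in Stat5b-/- (log2 fold changes -4.07 and -4.57, edgeR adjusted p = 9.42e-10 and 5.01e-10). Myc, a transcriptional activator of many glycolytic genes, had log2 fold changes of -0.55 in Stat5a-/- and -1.93 in Stat5b-/- (adjusted p = 0.00287 and 5.29e-08). Epas1, a hypoxia-inducible factor subunit, rose from 0.773 ± 0.294 to 3.71 ± 0.661 and 2.47 ± 0.235 (2.22 in Stat5a-/- and 1.64 in Stat5b-/-, adjusted p = 3.33e-05 and 0.00048). Hif1a, a subunit with a higher level (182.6 ± 25.4 in wt), was named after its values were seen and went the other way. It was lower in Stat5a-/- (-0.40, adjusted p = 0.042) and not called in Stat5b-/- (-0.34, adjusted p = 0.0631). Arrdc4, an arrestin that restrains glucose uptake, rose in Stat5b-/- (1.54, adjusted p = 0.0121), from a low 0.504 ± 0.346 normalized CPM in wt to 1.55 ± 0.372. Bsg, the chaperone of both lactate exporters, was named after its values were seen and fell by 0.53 in Stat5b-/- and by 0.32 in Stat5a-/- on the log2 scale (adjusted p = 0.000541 and 0.0186).

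Of 16 hypoxia-inducible genes outside glycolysis, 10 were lower and 2 higher in Stat5b-/-, with a median log2 fold change of -0.86. In Stat5a-/- 6 were lower and 5 higher, with a median of -0.25. P4ha2, a collagen prolyl hydroxylase, had 18 to 28 reads in a wt library and 0 in all knockout libraries, which is at least 16.8-fold lower in Stat5a-/- and at least 18.9-fold lower in Stat5b-/- if 3 reads over the libraries of a line are taken as the floor. Adm, the peptide adrenomedullin, had 14 to 16 reads in a wt library, 1 read in all Stat5a-/- libraries and 3 in all Stat5b-/- libraries. Ero1l, an oxidase of protein folding, fell in Stat5a-/- (-2.28, edgeR adjusted p = 8.5e-08) and in Stat5b-/- (-2.06, adjusted p = 1.74e-07). Ndrg1, a differentiation-related gene, went the other way, from 2.47 ± 0.42 to 21.9 ± 1.52 in Stat5a-/- and 6.04 ± 1.14 in Stat5b-/- (3.14 and 1.29, adjusted p = 1.77e-08 and 0.000109). The genes of this list thus did not share a direction.

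**Figure D5:**
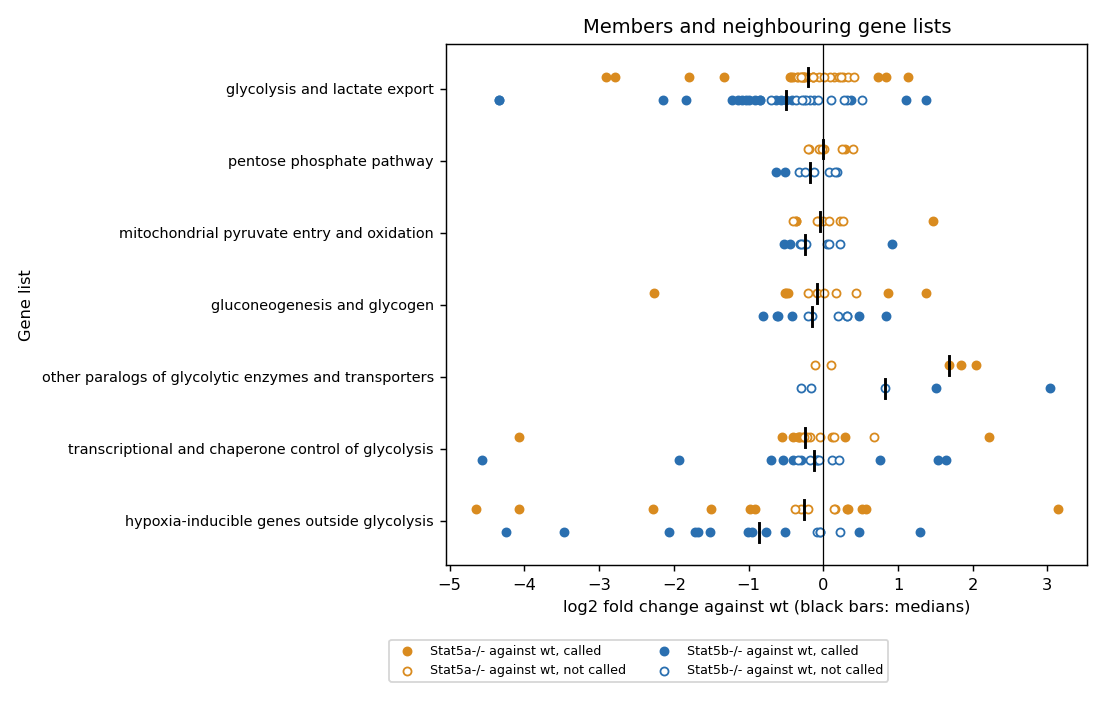
Log2 fold change against wt (x axis) of each gene tested in the members and 6 neighbouring lists (y axis) in Stat5a-/- (orange) and Stat5b-/- (blue); filled points were called, black bars are medians and P4ha2 is drawn at its bound. The members' medians are -0.50 and -0.205, and the lists of control and hypoxia-inducible genes hold points far out on both sides.

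Markers of the B lineage and of other cells were compared between the lines as well. The 12 B-lineage markers had reads in every line and summed to 5280 to 5540 normalized CPM in wt, 7110 to 7690 in Stat5a-/- and 6690 to 7430 in Stat5b-/- libraries. Of the 12, 7 were higher and 3 lower in Stat5b-/-, and 6 higher and 3 lower in Stat5a-/-. Lower in both were the recombinase genes Rag1, at 64.7 ± 2.06 normalized CPM in wt, 0.158 ± 0.079 in Stat5a-/- and 0.667 ± 0.18 in Stat5b-/-, and Rag2, at 32.5 ± 4.43, 0.077 ± 0.071 and 0.677 ± 0.361. Dntt, a polymerase of the same process, was lower in Stat5a-/- (-1.63, adjusted p = 1.44e-06) and higher in Stat5b-/- (1.32, adjusted p = 3.44e-06). The 16 T-cell markers, all with reads, summed to 750 to 1040, 1340 to 1540 and 1720 to 2480, and 15 of them were higher in Stat5b-/- and 8 in Stat5a-/- than in wt. The 9 erythroid markers summed to 11.8 to 14.2 in wt, 12.4 to 14.9 in Stat5a-/- and 3.36 to 4.04 in Stat5b-/-, and both of them that were tested were lower in Stat5b-/- than in wt, Hbb-bt (-2.32) and Klf1 (-1.81). The 10 myeloid markers summed to 4.1 to 6.51, 4.8 to 6.43 and 9.5 to 10.7, and both that were tested were higher in Stat5b-/-, Lyz2 (1.07, adjusted p = 0.000788) and Csf1r (1.09, adjusted p = 0.0136), while Mpo, Elane and Cd14 had 0 reads there and Elane and S100a9 had 0 in Stat5a-/-. None of the erythroid and myeloid markers tested was called in Stat5a-/- against wt. The marker genes were named after their values were seen. The part of these marker transcripts in the differences of the members was not tested.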

How the data were processed

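RNA-seq counts were analysed for 9 libraries, 3 technical replicates of a single line per genotype. The authors trimmed 50 bp single-end reads with Trimmomatic, mapped them with STAR to GRCm38 and counted them on GENCODE M13 gene models with featureCounts 1.5.1. The deposited counts are raw reads per gene, and reads of overlapping genes on opposite strands cannot be told apart in them. Libraries were grouped by the genotype in titles and labels, although the description of the knockout samples reads as wt. The members and all gene lists were chosen with earlier results of these data known.

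Counts were scaled with TMM, filtered with filterByExpr and tested with edgeR 4.0.16 (glmQLFit and glmQLFTest, R 4.3.3) over 13852 genes in a fit of all libraries, with Benjamini-Hochberg adjustment. Genes were called at an adjusted p under 0.05 and counted again past an absolute log2 fold change of 1. The SE is the size of the log2 fold change divided by the square root of F. Members past both limits in any comparison are given library by library, and of each neighbouring list up to 4 genes past both limits in either knockout line against wt are named, those with the largest change. Levels per kilobase use the length of the union gene model. Coding sequences (GENCODE M21) were cut into 50-base stretches and searched in the transcripts of all other genes. Upstream sequences came from RefSeq (GRCm38.p6). Alternatives were DESeq2 1.42.0, RLE, library totals, no filter or a mean of 10 counts, a fit of the compared lines alone, each library left out and the replicate block, and an offset for GC content was added after the data were seen. The steps were tested on simulated counts.

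All replicates differed from each other beyond counting noise. Reads carry no molecular identifiers, so counting error understates the error of low counts.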

Additional observations from a re-analysis of the deposited data

Results flagged for a closer look

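The direct test of Stat5b-/- against Stat5a-/- put 15 of 31 members past an adjusted p of 0.05 (edgeR, Benjamini-Hochberg adjusted over all genes), 14 lower and 1 higher, where 17.5% of all genes were lower and 16.4% higher. For these members, the changes against the shared wt libraries thus differed between the knockout lines. In 3 of them, the changes against wt also had opposite signs, Pfkfb4 with a direct log2 fold change of -1.83, Hk2 with -0.58 and Pfkp with -0.39, although of the changes against wt only the rise of Pfkfb4 in Stat5a-/- was called. The calls of Slc2a1 and Pfkm were lost without Stat5a-/- replicate 3, and that of Slc2a1 also without Stat5b-/- replicate 3, and that of Pgk1 was lost under 6 alternatives. For 11 further members the direct value was negative, Slc16a3 at -1.55, Aldoc at -1.43, Eno1 at -1.08, Aldoa at -0.81, Pkm at -0.75, Eno3 at -0.63, Pgk1 at -0.59, Ldha at -0.56, Pfkm at -0.51, Tpi1 at -0.47 and Slc2a1 at -0.45. Pdk2 was the only one of the 15 with a positive direct value, 0.95. Groups of 3 libraries are too small for a test of single libraries that lie far out.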

How the results depend on the processing

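No call of a member turned its direction under any alternative run. In Stat5b-/- against wt, leaving out each library in turn gave 13 to 18 members lower, 2 to 3 higher and a median log2 fold change of -0.659 to -0.423, the former without wt replicate 2. In Stat5a-/- against wt the ranges were 6 to 10 lower, 3 to 4 higher and -0.254 to -0.145. In Stat5b-/- against Stat5a-/- they were 12 to 15 lower, 1 to 3 higher (3 without replicate 3 of either knockout line) and -0.473 to -0.328. With library totals in place of TMM, 13 members were lower in Stat5a-/- against wt with a median of -0.346, and in the direct comparison 3 were higher with a median of -0.281. That scaling moved the median of all genes tested to -0.13 and 0.134 in these comparisons, and higher calls were 18.8% of the members' calls in the direct comparison, against 6.67% with TMM. With the GC offset, added after the data were seen, 14 members were lower in Stat5a-/- and 3 higher in the direct comparison, where 16.7% of the members' calls were then higher. Over all genes, those lower in Stat5a-/- went from 2254 of 13852 to 3045 of 13824 with the offset and 3429 with library totals, and those higher in the direct comparison from 2269 to 3205 and 3262. The cause of these changes was not tested.

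Deviations of libraries of equal replicate number were not positively correlated across genes on average (mean -0.111 in 9 pairs, from -0.557 to 0.29). In the other 18 pairs the correlations ran from -0.524 to 0.482. Their mean of 0.055 is tied to the former mean, because deviations were centred within each line, and adds no information. The main fit did not use the replicate numbers. With the replicate block, 16 members were lower and 2 higher in Stat5b-/-, 6 lower and 3 higher in Stat5a-/-, and 15 lower and 1 higher in the direct comparison.

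The neighbouring and marker lists were not run under the alternatives. Of the members' alternative values, 37 of 1564 lost their call and 61 gained one. Without length scaling, 62 share values moved by more than the spread between libraries, yet 52 of 54 differences of a gene's share from wt kept their sign, both exceptions being Pfkl. Over all libraries, the tested members with the fewest reads were Eno2, Pgam2, Pgam1 and Pfkfb4, and Slc16a3 and Aldoc fell to 14 and 13 reads in a Stat5b-/- library, and mapping limits Gapdh, Pgk1, Pgam1, Eno1, Pfkfb2 and Pkm.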
